A study of Mus musculus with 10 samples.

Results

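Complex IV, or cytochrome c oxidase, is the last enzyme of the respiratory chain and passes electrons from cytochrome c to oxygen. Several of its nuclear-encoded subunits exist as a pair of genes, one used in most tissues and one used in particular tissues. The paired genes and the relative of one of them were followed here in interscapular brown adipose tissue (iBAT), the thermogenic fat between the shoulder blades, of Axl KO and WT mice. The members were 9 genes, taken by symbol from the 41249 gene identifiers of the count tables. They were Cox4i1, Cox6a1, Cox7a2 and Cox8a, the widely used isoforms, Cox4i2, Cox6a2, Cox7a1 and Cox8b, the tissue isoforms, and Cox7a2l, a relative of Cox7a2. All 9 passed the filter on low levels and were among the 13739 genes tested.

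RNA was sequenced from whole iBAT depots of 10 male mice on a high fat diet (HFD), 5 Axl KO and 5 WT littermates, with 1 library per mouse. AXL is a receptor tyrosine kinase, and the question behind the comparison was how its loss affects the depot under HFD. The Axl KO mice lacked the receptor constitutively in the whole body, through a knockout-first allele, and both groups were placed on HFD at 6 to 8 weeks of age for 24 weeks per the labels, so that no group on another diet was available to compare. Because Axl was lost in every cell, a difference cannot be assigned to brown adipocytes, and in whole tissue fewer cells of a type cannot be told apart from less RNA per cell. The libraries held 5431014 to 8214841 counts in the Axl KO mice and 5952427 to 9580215 in the WT mice. Levels are given as CPM, the counts scaled to a common library size of 1e+06 after TMM normalization. Axl itself was at 1.57 ± 0.646 CPM (SD, n = 5) in the Axl KO mice and at 43.1 ± 5.86 CPM (n = 5) in the WT mice. All 12 brown adipocyte markers were detected in every mouse, with Ucp1 between 2989.7 and 7632.5 CPM. Of the 5 white fat depot genes, Hoxc9 and Tcf21 had 0 counts in all 10 mice and Hoxc10 at most 1, while Hoxc8 was at 1.39 to 5.05 CPM and Lep, which encodes leptin, at 175.8 to 594.8 CPM. The 5 summed to 178.6 to 597.8 CPM in the Axl KO mice and to 214.7 to 543.3 CPM in the WT mice, and the part of white adipocytes in the members' levels was not tested.

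COX4 and the small subunits COX6A, COX7A and COX8 sit around the catalytic core, which the mitochondrial genome encodes. COX4I2 is known from lung and from pericytes, the cells around small vessels, and is induced in low oxygen. COX6A2, COX7A1 and COX8B are known as the subunits of striated muscle, and COX7A1 and COX8B are also abundant in brown fat, where both are used as markers of thermogenic adipocytes. COX7A2L does not replace a COX7A subunit in the free enzyme but joins complex III to complex IV in respiratory supercomplexes. C57BL/6 mice carry a short form of it, which gene-level counts do not resolve.

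The coding sequences of each pair differ enough for sequenced fragments to be told apart. Over the aligned bases, the identity was 59.1% for Cox8a and Cox8b, 65.3% for Cox6a1 and Cox6a2, 67.3% for Cox7a1 and Cox7a2, 70.6% for Cox4i1 and Cox4i2, and 73.7% for Cox7a2 and Cox7a2l. The longest run of identical bases anywhere in both transcripts of a pair was 10 to 14 bases. The coding sequences of the Cox8 pair, on which the clearest difference between the genotypes rested, are printed from the GENCODE vM21 transcripts without the stop codon, with the longest run that both share, of 10 bases, in capitals.
Cox8b: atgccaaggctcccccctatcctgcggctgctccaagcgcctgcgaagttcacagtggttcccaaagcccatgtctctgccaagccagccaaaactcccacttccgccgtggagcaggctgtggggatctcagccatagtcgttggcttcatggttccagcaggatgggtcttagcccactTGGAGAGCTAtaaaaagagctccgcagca
Cox8a: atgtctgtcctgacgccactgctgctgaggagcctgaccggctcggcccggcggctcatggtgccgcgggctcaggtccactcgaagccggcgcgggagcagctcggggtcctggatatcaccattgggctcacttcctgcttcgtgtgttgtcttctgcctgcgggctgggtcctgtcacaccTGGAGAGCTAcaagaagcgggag

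Upstream of their starts the isoforms of a pair also differ. RefSeq start sites were matched for 6 of the 9 members, and Cox4i1, Cox4i2 and Cox6a2 were not matched. The 250 bases before the start are shown for the Cox8 and Cox7a pairs, because these were the pairs in which both genes were well expressed in iBAT, with each CpG in capitals (GRCm38.p6, 5′ to 3′ on the gene's strand). They lie at chr7:140900447-140900696 on the minus strand for Cox8b, chr19:7217617-7217866 on the minus strand for Cox8a, chr7:30183921-30184170 on the plus strand for Cox7a1 and chr9:79759854-79760103 on the minus strand for Cox7a2.
Cox8b: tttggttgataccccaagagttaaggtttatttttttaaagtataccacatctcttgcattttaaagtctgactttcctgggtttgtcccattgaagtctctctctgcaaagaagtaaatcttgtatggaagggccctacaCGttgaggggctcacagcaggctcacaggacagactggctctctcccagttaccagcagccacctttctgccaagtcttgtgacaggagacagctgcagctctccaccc
Cox8a: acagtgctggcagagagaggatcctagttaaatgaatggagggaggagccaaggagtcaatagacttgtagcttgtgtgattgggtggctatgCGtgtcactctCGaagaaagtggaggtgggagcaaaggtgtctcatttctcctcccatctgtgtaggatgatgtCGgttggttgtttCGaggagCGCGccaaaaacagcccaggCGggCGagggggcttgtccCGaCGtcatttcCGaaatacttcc
Cox7a1: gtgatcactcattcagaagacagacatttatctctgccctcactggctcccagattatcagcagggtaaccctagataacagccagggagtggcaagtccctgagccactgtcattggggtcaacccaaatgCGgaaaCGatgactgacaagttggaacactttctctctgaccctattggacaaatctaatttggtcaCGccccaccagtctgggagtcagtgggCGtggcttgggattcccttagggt
Cox7a2: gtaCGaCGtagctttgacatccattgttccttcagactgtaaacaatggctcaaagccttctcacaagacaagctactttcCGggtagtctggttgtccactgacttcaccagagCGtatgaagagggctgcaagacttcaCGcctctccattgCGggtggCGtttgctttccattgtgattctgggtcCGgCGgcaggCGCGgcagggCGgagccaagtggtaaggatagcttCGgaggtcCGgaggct

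The Cox8b window held 1 CpG and the Cox8a window 11, and the Cox7a1 window held 4 and the Cox7a2 window 14. Over the 32851 promoters of the same length in the table the median was 6 CpG, and 7.87% of them held fewer than Cox8b, against 37.8% for Cox7a1, 64.4% for Cox8a and 70.6% for Cox7a2. Cox6a1 held 26 CpG, with fewer in 90.4% of promoters, and Cox7a2l held 13, with fewer in 68.5%. Both tissue isoforms therefore had fewer CpG in this window than their partners. Motif letters for factors of respiratory genes were searched on both strands: GCATGCGC for NRF1 (found in 2.26% of all promoters), CCGGAAG for ETS factors (6.91%), AAGGTCA for the ERR half-site (4.08%), GCCATNTT for YY1 (3.91%), TGACGTCA for the CRE (1.55%), TATAAA for the TATA box (12.4%) and CANNTG for the E-box (66.2%). Among the 6 windows, only that of Cox6a1 held the NRF1 letters, from -162 to -155 on the minus strand and from -160 to -153 on the plus strand, which overlap, and the ETS letters from -16 to -10. Each of the other 5 windows held 1 E-box and no match to the other letters.

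The isoforms were expressed very unevenly in iBAT, and differently from pair to pair. Per kilobase of exon, Cox8b was the highest member, at 3103.6 ± 318.5 CPM per kb (SD over the 10 mice), followed by Cox6a1 at 1338.7 ± 108.1, Cox7a1 at 1080.0 ± 86.3, Cox4i1 at 864.9 ± 45.5, Cox8a at 801.8 ± 39.9 and Cox7a2 at 467.8 ± 40.8 CPM per kb. Cox7a2l lay at 93.8 ± 5.74 CPM per kb, and Cox6a2 and Cox4i2 closed the order at 13.9 ± 12.2 and 2.83 ± 1.06 CPM per kb. Along this order, the ranges over mice overlapped for 3 pairs of neighbours, Cox6a1 with Cox7a1, Cox4i1 with Cox8a and Cox6a2 with Cox4i2. In the first 2 of these the order still held within each of the 10 mice, and in the last within 8 of 10. The lengths matter for the order: with the longest coding transcript in place of all exons, Cox4i1 rose to 1752.5 CPM per kb, above Cox6a1 at 1645.9 CPM per kb, while Cox8b stayed highest.

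In the Cox8 pair the tissue isoform prevailed in every mouse. Cox8b made up 76.7% to 81.3% of the per-length level of the pair. In the Cox7a pair, Cox7a1 made up 67.3% to 72.4%, and with Cox7a2l counted as the third gene of the family it made up 63.6% to 68.3%, beside 26.0% to 31.0% for Cox7a2 and 4.6% to 6.48% for Cox7a2l. The other 2 tissue isoforms were marginal. Cox6a2 made up 0% to 2.09% of the Cox6a pair, and Cox4i2 made up 0.155% to 0.547% of the Cox4 pair. In mRNA, iBAT thus held mostly the muscle-type isoform for COX7A and COX8 and almost only the widely used isoform for COX4 and COX6A. Which isoform sat in the enzyme was not measured.

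**Figure D1:**
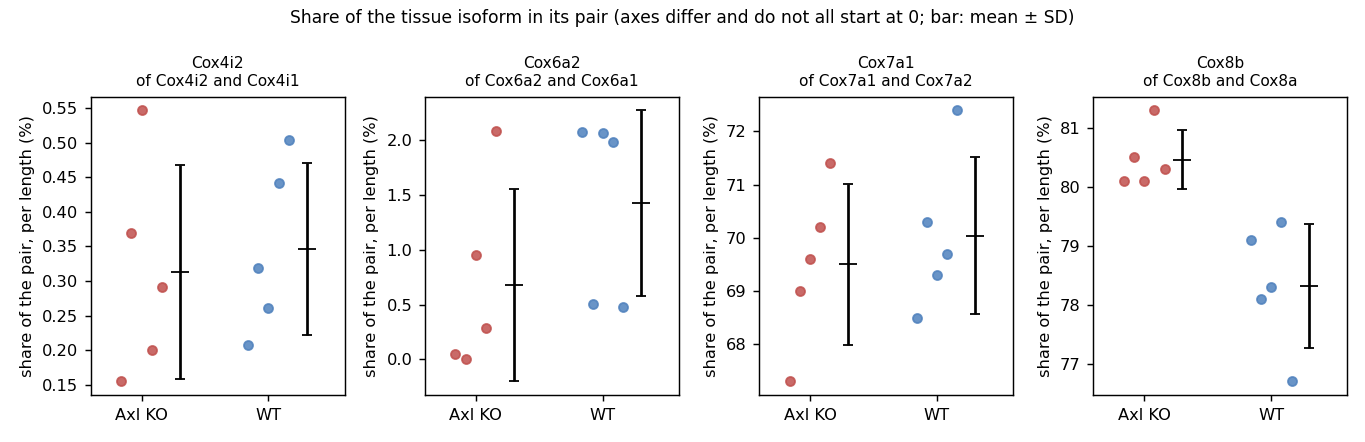
Share of the tissue isoform in the per-length level of its pair, in percent, with 1 point per mouse and mean ± SD (n = 5) for Axl KO (red) and WT (blue); the axes differ and do not all start at 0. Cox8b holds 80.4% in the Axl KO mice and 78.3% in the WT mice with no overlap, while the groups overlap for the 3 other pairs.

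Of the 4 isoform ratios, that of the Cox8 pair was the one that passed its test between the genotypes. Cox8b was at 1191.3, 1254.2, 1074.4, 1264.0 and 1263.9 CPM in Axl KO mice 1 to 5 and at 1049.9, 1059.0, 993.6, 1053.1 and 969.6 CPM in WT mice 1 to 5. The lowest Axl KO mouse, number 3, was still above the highest WT mouse, so the groups did not overlap, as they did not with Axl KO higher for 0.735% of all genes. The means were 1209.6 ± 81.4 and 1025.0 ± 40.7 CPM (SD, n = 5 each), a 1.18-fold higher level with a log2 fold change of 0.239 (SE 0.063, 95% interval 0.103 to 0.375). Over all 13739 genes this gave an unadjusted p of 0.00231 and an adjusted p of 0.571 in edgeR's quasi-likelihood test, so the level of Cox8b did not pass the threshold of 0.05. The adjusted p depended on the tool. In DESeq2, run as an alternative, the unadjusted p was 6.73e-05 and the adjusted p was 0.0924, also above 0.05. Cox8a, the partner, was at 507.8, 523.9, 459.4, 500.0 and 533.9 CPM in the Axl KO mice and at 476.3, 510.8, 474.4, 470.9 and 505.5 CPM in the WT mice. Those groups overlapped, with a log2 fold change of 0.051 (SE 0.058, 95% interval -0.076 to 0.177), which was 0.083 without Axl KO 3 and 0.029 without Axl KO 5.

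The ratio of the 2 genes is read within each library, so that library size and scaling cancel. The log2 ratio of Cox8b to Cox8a counts was 1.23, 1.26, 1.23, 1.34 and 1.24 in the Axl KO mice and 1.14, 1.05, 1.07, 1.16 and 0.94 in the WT mice. Again no Axl KO mouse reached down to the highest WT mouse. The mean log2 ratio was 1.259 ± 0.046 (SD, n = 5) against 1.072 ± 0.087 (n = 5), a difference of 0.187, or 1.14-fold (exact permutation test, two-sided, p = 0.00794, the smallest value that 5 against 5 mice allow, and 0.0318 after Benjamini-Hochberg adjustment over the 4 pairs). As a share of the pair per length, Cox8b was 80.1%, 80.5%, 80.1%, 81.3% and 80.3% in the Axl KO mice and 79.1%, 78.1%, 78.3%, 79.4% and 76.7% in the WT mice. The shift in share was 2.13 percentage points, small beside the excess of Cox8b that both genotypes had. The higher Cox8b level in the Axl KO mice was known from an earlier look at these data, so the ratio is not independent evidence of it.

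The Cox7a pair gave another picture, in which both genes lay higher and their balance did not move detectably. Cox7a1 was at 592.0, 580.2, 550.5, 630.5 and 678.4 CPM in the Axl KO mice and at 537.2, 573.1, 530.2, 545.0 and 560.6 CPM in the WT mice, a log2 fold change of 0.143 (SE 0.065, edgeR unadjusted p = 0.0464, adjusted p = 0.588). Cox7a2 was at 508.4, 460.2, 424.7, 472.6 and 480.1 CPM in the Axl KO mice and at 436.0, 426.3, 414.4, 417.3 and 376.5 CPM in the WT mice, a log2 fold change of 0.18 (SE 0.064, edgeR unadjusted p = 0.0149, adjusted p = 0.571). For each gene the groups overlapped, through Axl KO mouse 3, the lowest of its group for both. The log2 ratio of Cox7a1 to Cox7a2 was 0.369 ± 0.103 in the Axl KO mice and 0.409 ± 0.103 in the WT mice (SD, n = 5 each), a difference of -0.04 (exact permutation test, two-sided, p = 0.556, adjusted p over the 4 pairs 0.611). Cox7a1 lies on chr7:30184144-30186078 (GRCm38), 4.43 Mb from Axl on the same chromosome. Cox6a2 and Cox8b are also on chromosome 7, at 102.4 and 115.1 Mb from Axl.

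Cox7a2l, the supercomplex protein, lay at 137.5 ± 9.86 CPM in the Axl KO mice and 139.8 ± 7.85 CPM in the WT mice (SD, n = 5 each), ranging from 126.7 to 152.3 and from 127.9 to 149.6 CPM. The groups overlapped over nearly their whole range, with a log2 fold change of -0.023 (SE 0.064, 95% interval -0.161 to 0.114).

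Cox4i1 and Cox6a1, the widely used partners of the marginal isoforms, were both slightly higher in the Axl KO mice without passing the test. Cox4i1 was at 1366.9 ± 92.3 against 1314.3 ± 30.4 CPM (log2 fold change 0.057, SE 0.061; edgeR adjusted p = 0.812), and Cox6a1 at 975.0 ± 91.2 against 904.6 ± 39.1 CPM (SD, n = 5 each; log2 fold change 0.108, SE 0.072; edgeR adjusted p = 0.683). The groups overlapped for both. Both values moved with single mice: without Axl KO 3, Cox4i1 had a log2 fold change of 0.097 and Cox6a1 of 0.163 (edgeR unadjusted p = 0.0148), and without Axl KO 2, Cox4i1 had 0.038. Cox4i1 shares 154 exon bases with Emc8 on the opposite strand, and whether the counting used strand is not given in the sources used here. Emc8 had 311 to 502 counts, at most 4.4% of the count of Cox4i1 in the same mouse.

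Cox4i2, the oxygen-responsive isoform, was near the limit of what these libraries measure. It had 7 to 29 counts per mouse, and a count of 7 has a 95% Poisson interval of 2.81 to 14.4, which covers counting error only. Its level was 1.08, 2.71, 3.38, 1.46 and 2.07 CPM in the Axl KO mice and 1.37, 2.22, 1.73, 2.92 and 3.4 CPM in the WT mice, with no separation between the groups. The log2 fold change was -0.086 (SE 0.331), with a 95% interval from -0.803 to 0.631, so the data do not settle whether there was a change of a size within that interval. The ratio of Cox4i2 to Cox4i1 differed by -0.201 on the log2 scale (exact permutation test, two-sided, p = 0.611, and 0.611 over the 4 pairs). The pericyte and smooth muscle markers, the cells Cox4i2 is known from, summed to 827.8 to 963.5 CPM in the Axl KO mice and 904.4 to 1023.9 CPM in the WT mice. In the Axl KO mice 9 of 12 were lower, while 49.8% of all genes were higher. Beside 8.4% of all genes in either direction, 1 of the 12 markers, Notch3, had an unadjusted p under 0.05. None of the 12 was at 0 in every mouse. Their part in the level of Cox4i2 was not tested.

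**Figure D2:**
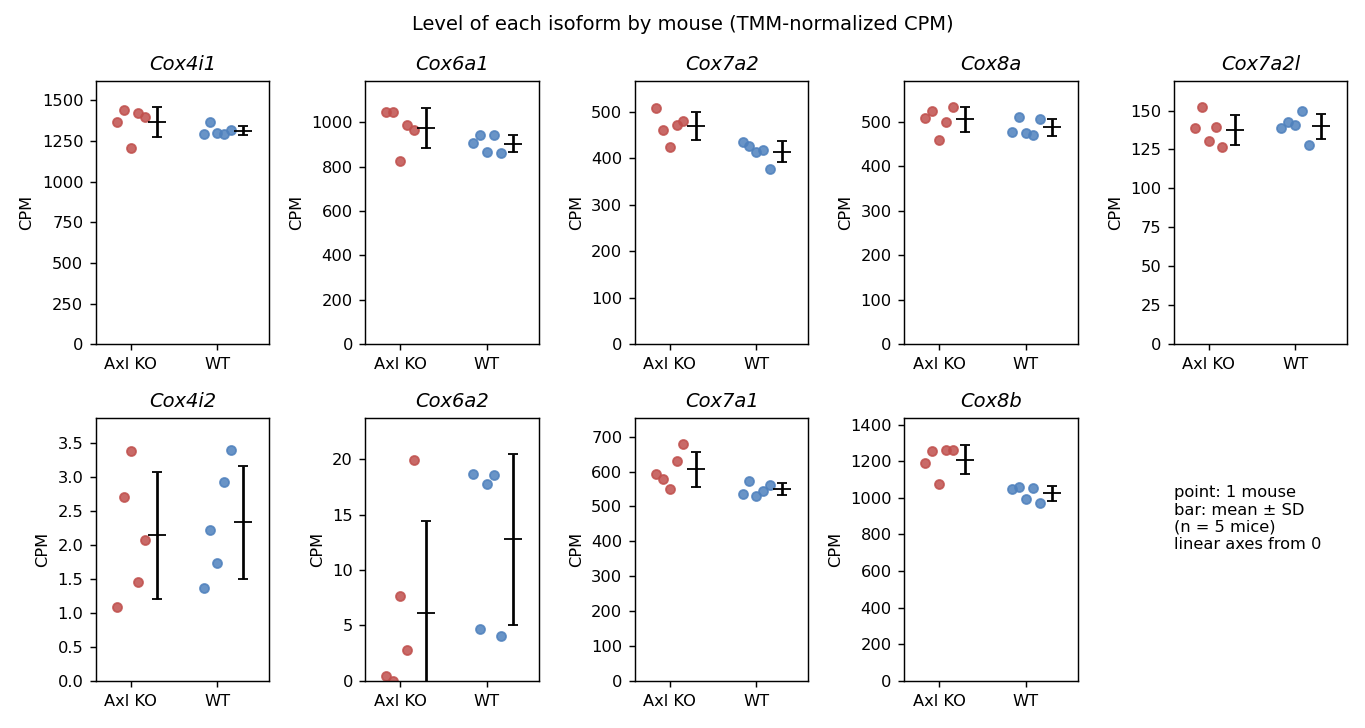
Level of each of the 9 members in CPM on linear axes that start at 0, with 1 point per mouse and mean ± SD (n = 5) for Axl KO (red) and WT (blue). Cox8b is the member whose groups do not overlap, and Cox6a2 runs from 0 to 19.9 CPM among the Axl KO mice alone.

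Cox6a2 varied more between mice than between genotypes. Its counts were 3, 0, 66, 19 and 106 in the Axl KO mice and 137, 44, 154, 108 and 32 in the WT mice, or 0.463, 0, 7.69, 2.77 and 19.9 CPM and 18.7, 4.66, 17.8, 18.6 and 4.03 CPM. The 2 lowest mice were Axl KO 1 and 2, yet the highest mouse was also an Axl KO mouse, and the groups overlapped. For Axl KO 2, the 0 of 6645186 counts allows up to 0.451 CPM. The log2 fold change was -1.085 (SE 0.775, 95% interval -2.766 to 0.597; edgeR adjusted p = 0.707), and the ratio to Cox6a1 differed by -2.65 on the log2 scale (exact permutation test, two-sided, p = 0.159, adjusted p over the 4 pairs 0.318). Cox6a2 shares 70 exon bases with Itgad on the opposite strand, and whether the counting used strand is not given. Itgad had 0 to 6 counts per mouse, with 6 in Axl KO 1 and 0 in Axl KO 2.

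The level of Cox6a2 followed the skeletal muscle markers of each library. The 18 skeletal muscle markers summed to 97.8, 92.1, 2139.3, 816.3 and 4224.5 CPM in the Axl KO mice and to 4048.8, 1102.6, 4906.3, 3901.0 and 1045.1 CPM in the WT mice. All 18 had a log2 fold change below 0, while 49.8% of all genes were higher, and 0 of 18 passed an unadjusted p of 0.05. Axl KO 1 and 2 were nearly free of these markers apart from Myl1, with 24 and 8 counts of Acta1, the skeletal muscle actin, against 644 to 5687 in the other 8 mice. Myl1 was at 69.7 and 84.3 CPM in these mice and made up most of their sums, which were 28.1 and 7.82 CPM without it. Over the 10 mice, Pearson's r between Cox6a2 and the marker sum was 0.982 (permutation test, p = 8e-05, 0.00072 after Benjamini-Hochberg adjustment over the 9 members) and Spearman's rho was 0.927 (permutation test, p = 0.00036, adjusted p = 0.00324). Without the 2 mice farthest from the median of the sum, Axl KO 5 and WT 3, r was 0.994. The relation held within each genotype, with r of 0.993 in the Axl KO mice and 0.967 in the WT mice, and 0.979 with each genotype centred on its mean. In the 8 mice with a marker sum of 816.3 CPM or more, 29.3 to 36.9 counts of Acta1 were found for each count of Cox6a2. In Axl KO 1 there were 8 Acta1 counts for each, from 24 and 3 counts, and Axl KO 2 had no Cox6a2 count. With the mean log2 level of the markers as a covariate in the fit, the log2 fold change of Cox6a2 was -0.016.

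Of the 5 heart markers, Myl7 and Nppa were at 0 in all 10 mice, Myh6 had at most 3 counts and Tnni3 at most 2, and Myl4, the one tested, was at 3.01 to 5.73 CPM. The part of either muscle in the level of Cox6a2 was not tested beyond these values. The genes most like Cox6a2 over the 10 mice, out of 13738 compared and with each genotype centred on its mean, were Eef1a2 (r = 0.997), an elongation factor of muscle and neurons, Ldb3 (r = 0.996), a protein of the muscle Z-disc, and Mylk2 (r = 0.995), the skeletal muscle myosin light chain kinase.

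The other tissue isoforms did not rise with the muscle markers. Pearson's r with the sum was -0.356 for Cox8b and -0.178 for Cox7a1 over the 10 mice (permutation test, adjusted p = 0.53 and 0.75), and between -0.489 and -0.072 for the 6 remaining members, with adjusted p between 0.481 and 0.837. Within the 5 WT mice, Cox7a1 and Cox8a lay lower the higher the sum (r = -0.954 and -0.959), and within the 5 Axl KO mice r was 0.581 and 0.112. Without the 2 farthest mice, r was -0.724 for Cox7a1, -0.554 for Cox8b and -0.807 for Cox8a over the remaining 8. In Axl KO 1 and 2, nearly free of muscle RNA, Cox8b was at 1191.3 and 1254.2 CPM and Cox7a1 at 592.0 and 580.2 CPM, above all 5 WT mice for both genes. Without these 2 mice, chosen after seeing the data, the log2 ratio of Cox8b to Cox8a differed by 0.197 between the genotypes. With the mean log2 level of the markers as a covariate, the log2 fold change of Cox8b was 0.228, beside 0.239 without it. That of Cox7a1 was 0.168 beside 0.143, and that of Cox7a2 0.164 beside 0.18. With the same covariate, Cox6a1 moved from 0.108 to 0.034, Cox4i1 from 0.057 to 0.02 and Cox8a from 0.051 to 0.022. Cox7a2l moved from -0.023 to -0.081 and Cox4i2 from -0.086 to -0.041.

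**Figure D3:**
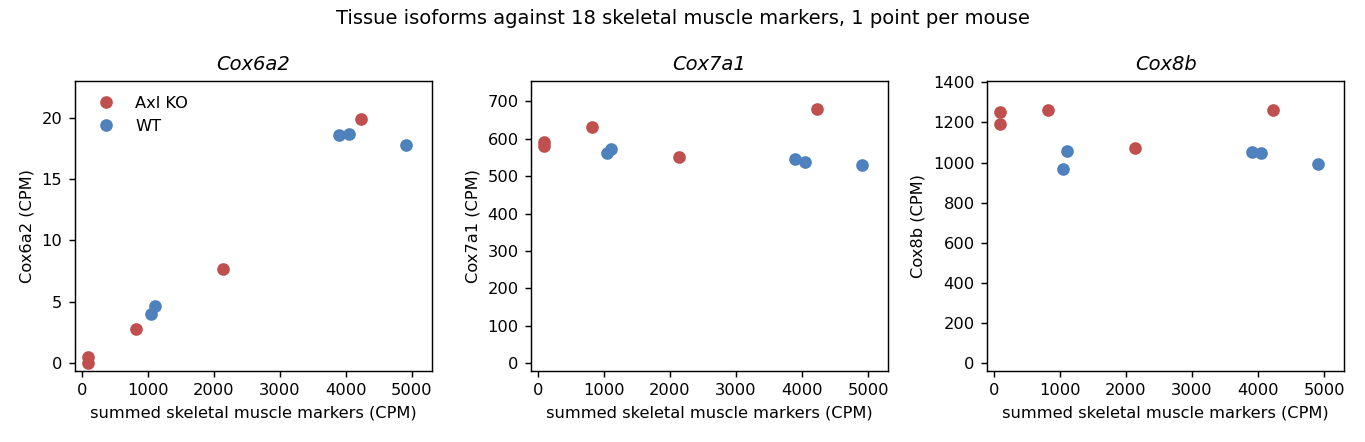
Level in CPM of Cox6a2, Cox7a1 and Cox8b against the summed level in CPM of 18 skeletal muscle markers, with 1 point per mouse (red Axl KO, blue WT). Cox6a2 climbs with the sum (r = 0.982), whereas Cox7a1 and Cox8b stay at or above 530.2 and 969.6 CPM in every mouse, those with hardly any muscle RNA included.

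Counted as a group against all genes tested, of the 9 members, 6 were higher and 3 lower in the Axl KO mice. Their median log2 fold change was 0.057 beside -0.001 over all 13739 genes, of which 49.8% were higher. At an unadjusted p under 0.05, 3 members were higher (Cox7a1, Cox7a2 and Cox8b) and 0 lower, against 4.54% and 3.86% of all genes, or 8.4% in either direction. With the mean log2 level of the muscle markers as a covariate, Cox8b remained under 0.05 (edgeR unadjusted p = 0.0142). Cox7a1 (0.0557) and Cox7a2 (0.0641) did not, so that the count fell from 3 to 1 in that edgeR fit. It fell in the same way without the 2 mice lowest in muscle markers. Cox7a1 was also above 0.05 without the filter on low counts (0.0603), under the replicate block (0.0545) and when 1 mouse was left out in 7 of 10 cases, with its highest p, 0.127, without Axl KO 5. The groups did not overlap for 1 member, Cox8b, as they did not for 1.35% of all genes (0.735% with Axl KO higher and 0.619% with Axl KO lower). At an adjusted p under 0.05, edgeR's quasi-likelihood test called 0 members and 1 of the 13739 genes (0.00728%), Axl. DESeq2 called 9 genes and again 0 members.

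The rest of the enzyme gives the scale for these differences. The nuclear subunits without a paired isoform, Cox5a, Cox5b, Cox6b1, Cox6c, Cox7b, Cox7c and Ndufa4, were higher on average in the Axl KO mice in 7 of 7 cases, beside 49.8% of all genes. The median log2 fold change of the 7 was 0.08, and 0 of 7 had an unadjusted p under 0.05 or groups that did not overlap. The lowest p belonged to Ndufa4, a subunit long counted with complex I, at 778.3 ± 60.1 against 705.4 ± 31.3 CPM (SD, n = 5 each; log2 fold change 0.142, SE 0.066; edgeR unadjusted p = 0.0524). Cox6c followed with a log2 fold change of 0.091 (SE 0.058) and Cox6b1 with 0.082 (SE 0.065). Set against the mean log2 level of these 7 genes in the same mouse, Cox8b stood 0.904 ± 0.047 above it in the Axl KO mice and 0.749 ± 0.036 in the WT mice (SD, n = 5 each), without overlap and 0.155 apart. This uses the same Cox8b counts, so it is not independent evidence of the higher Cox8b level. Relative to the same 7 genes, Cox7a2 differed by 0.098, Cox7a1 by 0.058 and Cox7a2l by -0.107 on the log2 scale, each with overlapping groups, and Cox4i1, Cox6a1 and Cox8a by -0.028, 0.022 and -0.032.

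**Figure D4:**
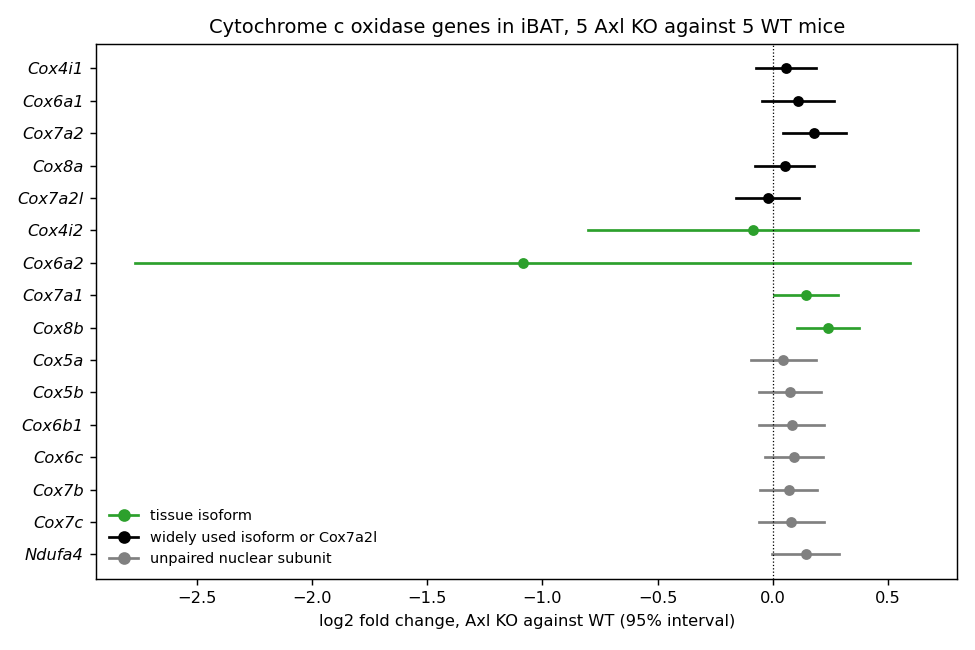
Log2 fold change of Axl KO against WT with its 95% interval for the 9 members (green tissue isoforms, black widely used isoforms and Cox7a2l) and the 7 unpaired nuclear subunits (grey), n = 5 mice per group. The well expressed genes lie between -0.023 and 0.239 with short intervals, and the intervals of Cox4i2 and Cox6a2 are several times wider.

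The catalytic core is encoded in mitochondria, and its transcripts were read unevenly. mt-Co1 was at 61459.4 ± 2645.4 CPM in the Axl KO mice and 61254.4 ± 4650.5 CPM in the WT mice (SD, n = 5 each; log2 fold change 0.005, SE 0.067), while mt-Co2 and mt-Co3 had only 181 to 674 and 96 to 5454 counts per mouse. mt-Co2 had a log2 fold change of 0.357 (SE 0.374) and mt-Co3 of -0.515 (SE 0.821). The other isoforms of restricted use were low or unseen: Cox7b2 and Cox8c had 0 counts in all mice, Cox6b2, the testis form, had 6 to 29 counts and Ndufa4l2, a hypoxia-induced relative of Ndufa4, had 20 to 57 counts, with log2 fold changes of -0.083 (SE 0.33) and -0.141 (SE 0.192).

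While 49.8% of all genes were higher in the Axl KO mice, 24 of 28 genes for the assembly of the enzyme were higher and 4 lower. Their median log2 fold change was 0.121. At an unadjusted p under 0.05, 7 were higher and 0 lower, beside 4.54% and 3.86% of all genes, and 0 passed after adjustment over all genes. The lowest p belonged to Coa3, which stabilises the newly made COX1 protein, at 57.2 ± 4.46 CPM in the Axl KO mice and 48.1 ± 1.0 CPM in the WT mice (SD, n = 5 each; log2 fold change 0.247, SE 0.062; edgeR unadjusted p = 0.00171, adjusted p = 0.571). It was also the 1 assembly gene whose groups did not overlap, as for 1.35% of all genes. Slirp, which protects mitochondrial mRNAs, and Cox20, a chaperone of COX2, followed with log2 fold changes of 0.214 (SE 0.074) and 0.232 (SE 0.081). In the same mice, 4 of 12 brown adipocyte markers had an unadjusted p under 0.05, all higher in the Axl KO mice (Dio2, Elovl3, Otop1 and Ucp1) beside 4.54% of all genes in that direction. Of the rest, Ebf2 and Ppara were lower (log2 fold change -0.086 and -0.198). Cidea, Cpt1b, Ppargc1a and Prdm16 lay between 0.012 and 0.044, and Kcnk3 and Zic1 at 0.208 and 0.186. The summed level of the 12 was 9007.1 to 12131.9 against 7439.0 to 9511.4 CPM, with Ucp1 its largest part. The part of these markers in the level of Cox8b and the assembly genes was not tested.

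Of 18 regulators of respiratory chain and isoform genes, 12 were higher and 6 lower, beside 49.8% of all genes higher. The median log2 fold change of the 18 was 0.044. Beside 8.4% of all genes in either direction, 1 of the 18 had an unadjusted p under 0.05. That gene was Chchd2, whose protein acts in mitochondria and also binds the promoter of Cox4i2, at 381.9 ± 32.0 against 334.5 ± 13.8 CPM (SD, n = 5 each; log2 fold change 0.191, SE 0.067; edgeR unadjusted p = 0.0143, adjusted p = 0.571). Hif1a, a subunit of the hypoxia-inducible factor, had a log2 fold change of 0.108 (SE 0.069) and Esrra, a nuclear receptor that drives respiratory genes, of 0.141 (SE 0.091). Both had overlapping groups.

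Across the mice, with each genotype centred on its mean, the well expressed members moved together to differing degrees. This is a description over 10 libraries that differed in depth and in the sum of the muscle markers. Cox8b correlated with Cox4i1 at r = 0.826 and with Cox6a1 at 0.815, more closely than with its partner Cox8a at 0.593, and Cox7a1 correlated with Cox8a at 0.732 and with its partner Cox7a2 at 0.316. The genes most like each member were, for Cox8b, Narfl (r = 0.959), Fam213a (0.942) and Polr3b (0.941), for Cox7a1, Agpat1 (0.971), Tecpr1 (0.96) and 4931406C07Rik (0.955), and for Cox7a2, Mrps17 (0.988), Ralgapa2 (0.965) and Scamp3 (0.955). For Cox6a1 they were Ss18l2 (0.963), the assembly gene Cox11 (0.95) and Esrra (0.946). For the remaining members the highest r was 0.934 for Cox4i1 with Cpeb3, 0.938 for Cox8a with Lurap1, 0.941 for Cox7a2l with Gm43788 and 0.941 for Cox4i2 with Cep95, the last at the low counts given for Cox4i2. Each gene named as most like a member was picked as among the best of 13738 compared over 10 mice. How high the best r runs among unrelated genes was not tested.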

How the data were processed

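RNA of whole iBAT from 10 male mice, 5 Axl KO and 5 WT littermates, was sequenced. The authors deposited 1 table of raw counts per gene and mouse, not normalized and not pooled. The submitters' notes name bcl2fastq, Trimmomatic 0.36, STAR 2.6.1c, DESeq2 and GRCm38.p5 and polyA RNA, while the methods describe Trim Galore, hisat2 and rRNA depletion; the counting tool and its strand setting are not given in the sources used here. Library preparation by either route can change the share of mitochondrial transcripts. The Axl allele is a knockout-first cassette. Of the 41249 identifiers, 41163 were in GENCODE vM21.

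Genes with a mean above 1 CPM were tested with edgeR 4.0.16 (TMM, quasi-likelihood test, Benjamini-Hochberg over 13739 genes) in R 4.3.3; DESeq2 1.42.0 was an alternative. Isoform ratios used counts plus 0.5, on the log2 scale, with exact permutation tests over the 252 splits of the mice (scipy 1.17.1); correlations with the muscle sum used 100000 permutations. Shares per length used the union of each gene's exons. Similar transcripts were searched with blastn 2.17.0 (at least 90% identity over 100 bases); apart from Emc8, none of those found was in the count tables. The procedure was tested on simulated data. Any pair of mice differed by a chi-square per gene of at least 5.03, so each was counted as 1 replicate; which mice shared a litter is not given. The members and gene lists were chosen with earlier results of these data known. Named were the members, Axl, the 3 genes of lowest unadjusted p and those at or near 0 in each complex IV or regulator list, and the 3 genes most like each member, all 3 printed for 5 members; marker lists were given as counts and sums, and the markers named singly were chosen after their values were seen. Alternatives were the filter, scaling, tool, pseudocount, gene length, muscle markers, replicate block and leaving out each mouse.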

Additional observations from a re-analysis of the deposited data

How the results depend on the processing

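No member passed an adjusted p of 0.05 under any alternative, while DESeq2 called 9 genes in all and edgeR 1. Leaving out each mouse in turn, the log2 fold change of Cox8b ran from 0.219 to 0.278 (edgeR adjusted p 0.107 to 0.812), and the ratio of Cox8b to Cox8a from 0.154 to 0.21 (exact permutation test, p = 0.0159 in each). That p is the smallest possible with 1 mouse left out. It was fixed in advance by the lack of overlap in the full set of mice, so it adds no support for the difference. The replicate numbers did not pair the mice (correlations of same-numbered deviations from -0.355 to 0.369); with the replicate block that ratio differed by 0.187 with an exact p of 0.0625, the smallest that 5 pairs allow, and under the block Cox7a1 passed from an unadjusted p of 0.0464 to 0.0545; no call at an adjusted p changed. The log2 fold change of Cox4i2 ran from -0.34 to 0.098 and that of Cox7a2l from -0.062 to 0.003 over the left-out mice. The sign of Cox4i2 turned to 0.08, 0.029 and 0.098 without Axl KO 1, Axl KO 4 and WT 5 and to 0.031 without the 2 mice lowest in muscle markers, and that of Cox7a2l to 0.003 without Axl KO 5 and 0.002 without WT 4. The ratio of Cox4i2 to Cox4i1 ran from -0.43 to 0.007 and that of Cox7a1 to Cox7a2 from -0.073 to 0.001 over the left-out mice; the latter was 0.008 with Cox7a2l added to Cox7a2 and 0.021 without the 2 mice lowest in muscle markers. The ratio of Cox6a2 to Cox6a1 ran from -3.52 to -1.48, was -0.479 without those 2 mice, and has no value at a pseudocount of 0. Without Axl KO 5, the log2 fold change of Cox6a2 was -2.08 (edgeR unadjusted p = 0.0145, adjusted p = 0.646), and without Axl KO 2 -0.759. Shares depended on the length used, by construction: with raw counts and with the longest coding transcript, Cox8b was 70.5% and 78.5% in Axl KO and 67.8% and 76.2% in WT, Cox7a1 56.3% and 63.7% in Axl KO and 57.0% and 64.3% in WT, and Cox4i2 0.159% and 0.166% in Axl KO and 0.177% and 0.184% in WT. Other causes were not tested.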
